A study of Arabidopsis thaliana with 24 samples.

Results

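Jasmonate synthesis and response genes, 10 of 37899 annotated genes, were followed across the transcription start sites of 4 Arabidopsis thaliana accessions. They were taken by name: the synthesis genes LOX2, AOS, AOC1 and AOC2, the repressor genes JAZ1 and JAZ10, the storage protein genes VSP1 and VSP2, the transcription factor gene ORA59 and the defensin gene PDF1.2. The level of a gene was summed over the tags of all start-site clusters on its strand whose peak lay between 500 bp upstream of the annotated gene and the gene's end. All 10 genes had listed clusters, and all 10 reached 5 CPM (tag counts scaled to a total of 1000000 tags) in 1 or more accessions.

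The study used CAGE, in which the caps of RNA molecules are biotinylated and captured so that sequenced tags mark capped 5′ ends. The labels give 24 libraries of wild-type aerial parts, 3 for each combination of accession (Vash-1, Shigu-2, Kly-1 and Altenb-2) and condition. Control seedlings were 2 weeks old and grew at 22 °C in continuous light of 40 µE per square metre and second, and treated seedlings had a further 24 h at 4 °C and 140 µE. The cluster table analysed here holds 1 pooled value for each cluster in each of 4 sets, whose identifier initials match the accession names. It has no column for library, condition or replicate, so differences of accession and of condition cannot be told apart, no replicate error exists and no p-value was computed. Fewer cells of a type and less RNA per cell cannot be told apart in such bulk samples either.

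Jasmonates are lipid-derived hormones made from linolenic acid of chloroplast membranes, where a lipoxygenase, an allene oxide synthase and an allene oxide cyclase act in turn; the later steps take place in peroxisomes. The isoleucine conjugate of jasmonic acid binds the receptor COI1, which leads to the breakdown of JAZ proteins and frees the transcription factors that JAZ proteins hold back. In Arabidopsis leaves one branch, led by MYC2, raises wound-response genes such as VSP1 and VSP2, and another, led by ERF factors such as ORA59 together with ethylene, raises defensin genes such as PDF1.2.

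After the ribosomal RNA repeats were set aside, the sets held 24535666 tags in Vash-1, 37230794 in Shigu-2, 29311532 in Kly-1 and 22462179 in Altenb-2. CPM values are scaled to these totals. Intervals are 95% intervals that cover counting error only; no molecular identifiers are mentioned, so tags may include PCR copies. The smallest listed cluster has 5 tags, and an unlisted one can hold up to 4, or 0.178 CPM in Altenb-2. The labelled tissue matched its markers: 6 photosynthesis genes summed to between 49109 and 70072 CPM per set. The 7 root markers summed to between 3.28 and 6.32 CPM, with EXPA7 and RHD6 unlisted in every set.

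Short stretches of the members' promoters carry the start sites and motifs that the results refer to. They were read from the TAIR10.1 reference, not from the accessions' own genomes, and are written 5′ to 3′ on the gene's strand. LOX2 is shown because its most used start site differed between sets. The first line spans both start sites, chr3:16525406-16525435 on the plus strand, with the bases at 16525412 and 16525429 in capitals. The lines after it, chr3:16525374-16525403 and chr3:16525391-16525420, are the stretches upstream of these starts, with a TATA match in capitals where there is one.
LOX2 start sites: gaatgtAagccttatagaagagaAaaaaaa
LOX2 upstream of 16525412: acttgTATAAAtagatgaagtggatatgag
LOX2 upstream of 16525429: aagtggatatgagaggaatgtaagccttat

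VSP1 and VSP2 are close copies whose levels varied widely and in different orders, so stretches of both are shown, all on the minus strand. The first line, chr5:8508932-8508961, holds the TATA match of the VSP1 start 8508923 in capitals. The lines after it, chr5:8501893-8501922 and chr5:8501867-8501896, hold those of the VSP2 starts 8501884, the main one in Kly-1 and Shigu-2, and 8501858, the main one in Vash-1. The pair of T/G-box lines, chr5:8509097-8509126 and chr5:8502055-8502084, holds AACGTG, a form of the T/G-box bound by MYC factors, in capitals. The T/G-box windows had the same base at 25 of 30 positions. The last line, chr5:8501857-8501885, gives the VSP2 start sites 8501884, 8501882, 8501880 and 8501858 in capitals, in the direction of transcription.
VSP1 TATA: catTATATAataccaccctttgtgtcacac
VSP2 TATA of 8501884: cacctcatTATAAAtaccaccctttgcgtc
VSP2 TATA of 8501858: cgtcacacaTATAAAcatcacaaactaaac
VSP1 T/G-box: tagcacagtctcAACGTGctctaaaaacga
VSP2 T/G-box: gcacacaatctcAACGTGcactaaaaacga
VSP2 start sites: tAaAcAtcacaaactaaacaataaaccAt

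ORA59 and PDF1.2 were the members with the GCC-box GCCGCC, the element bound by ERF factors, which is in capitals below. The windows lie at chr1:1882665-1882694 on the plus strand for ORA59 and chr5:17907843-17907872 on the minus strand for PDF1.2. G-boxes, CACGTG, are the core element of MYC factors and are shown for AOS at chr5:17099584-17099613 on the minus strand, and on the plus strand for AOC2 at chr3:9406777-9406806 and JAZ1 at chr1:6622017-6622046.
ORA59 GCC-box: tgtcgggaatacGCCGCCgtacgtcataca
PDF1.2 GCC-box: tcagattaaccaGCCGCCcatgtgaacgat
AOS G-box: aaagagtcaaagCACGTGgctaaatgaatc
AOC2 G-box: tggtaatttacgCACGTGctacttcatcaa
JAZ1 G-box: aacaaaataaaaCACGTGttttttatacca

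The 4 synthesis genes varied least between sets, and the VSP genes and PDF1.2 varied most. None of the 4 synthesis genes spanned 2-fold between its highest and lowest set, although AOC2 did under median-of-ratios scaling, with a log2 span of 1.03. Both VSP genes, ORA59, PDF1.2 and JAZ10 spanned 2-fold. These are 5 of 10 members, against 23.5% of the 14774 genes of the whole annotation that reached 5 CPM in at least 1 set. Spans are differences of log2(CPM + 0.5), a scale that understates differences of low genes, and a span of 1 or more was counted. The median span of the members was 1.34 on this scale and that of all genes tested 0.62. VSP1 and VSP2, with spans of 7.07 and 5.56, and PDF1.2, with a span of 5.62 that includes its unlisted set, passed 4, as did 1.75% of all genes tested.

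**Figure D1:**
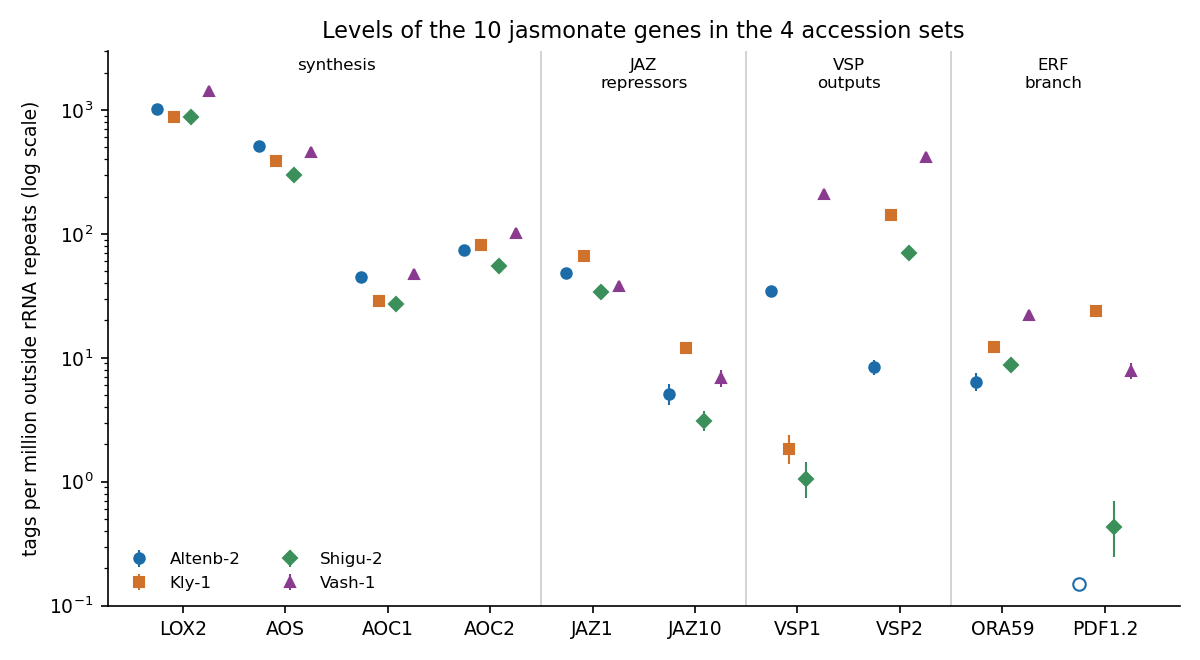
Level of each member in the 4 accession sets, in CPM on a log axis, with exact 95% Poisson intervals as bars; the open circle at the bottom marks PDF1.2 in Altenb-2, where no cluster is listed. The 4 synthesis genes lie close together across sets, while VSP1 runs from 1.05 CPM in Shigu-2 to 208 CPM in Vash-1.

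Vash-1 was the highest set for 6 members (LOX2, AOC1, AOC2, VSP1, VSP2 and ORA59), against 19.2% of all genes tested. Kly-1 was highest for 3 members (JAZ1, JAZ10 and PDF1.2), against 21.3%, and Altenb-2 for AOS. Shigu-2 was highest for 0 of the 10 members, while the share of all genes tested that were highest there depended on the scaling, at 41.5%, 25.8% with median-of-ratios scaling and 63.4% with rRNA kept in the totals. It was lowest for 6 members, against 16.4%, a share given only for CPM scaled without the rRNA repeats. With tags counted only up to the start codon, AOC1 was lowest in Kly-1 instead. Each set was also compared at 2-fold with the mean of the other 3 sets, taken over log values on the scale of the spans and not over CPM. A set can therefore be called higher while another set lies above it. VSP2, for example, is called higher in Kly-1, at 141 CPM, although Vash-1 had 418 CPM. Vash-1 was higher for 4 members (VSP1, VSP2, ORA59 and PDF1.2), against a background of 3.63% of genes. Kly-1 was higher for 3 members (JAZ10, VSP2 and PDF1.2), against 3.91%, and lower for VSP1 alone, against 2.75%. Altenb-2 was higher for VSP1 alone, against 2.74%, and lower for 3 members (VSP2, ORA59 and PDF1.2), against 4.55%. Shigu-2 was lower for 3 members (JAZ10, VSP1 and PDF1.2), against 3.67%. With 10 members these counts are descriptions.

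LOX2 (AT3G45140, chromosome 3, 16525245 to 16529352, plus strand) encodes the chloroplast lipoxygenase that oxygenates linolenic acid at the start of the pathway. Its level was 1421 CPM in Vash-1, 876 in Shigu-2, 868 in Kly-1 and 1025 in Altenb-2. Vash-1 stood above the other sets, and Kly-1 and Shigu-2 did not differ beyond counting error. The ratio of Vash-1 to Kly-1 was 1.64 (1.61 to 1.66).

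AOS (AT5G42650, chromosome 5, 17097564 to 17099595, minus strand) encodes allene oxide synthase, the cytochrome P450 that turns the lipoxygenase product into an allene oxide. It had 462 CPM in Vash-1, 299 in Shigu-2, 386 in Kly-1 and 511 in Altenb-2. Altenb-2 was highest and Shigu-2 lowest, at a ratio of 1.71 (1.66 to 1.75).

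AOC1 (AT3G25760, chromosome 3, 9403779 to 9405338, plus strand) and AOC2 (AT3G25770, chromosome 3, 9406669 to 9408071, plus strand) are neighbours that encode allene oxide cyclases, which set the stereochemistry of the precursor of jasmonic acid. AOC1 had 47.6 CPM in Vash-1, 27.0 in Shigu-2, 28.96 in Kly-1 and 44.7 in Altenb-2. Its sets fell into a higher pair, Vash-1 and Altenb-2, and a lower pair, Kly-1 and Shigu-2, and within each pair the interval of the ratio held 1. The ratio of Vash-1 to Shigu-2 was 1.76 (1.62 to 1.92).

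AOC2 had 101 CPM in Vash-1, 55.0 in Shigu-2, 81.9 in Kly-1 and 73.5 in Altenb-2. Vash-1 was again highest and Shigu-2 lowest, at a ratio of 1.84 (1.74 to 1.95), but Kly-1 stood above Altenb-2 here. The coding sequences of the AOC pair are 90.1% identical, but over the 75 genomic bases from each gene's main start, nearer to where the tags lie, identity is 64.0%; the longest identical stretch is 47 bp. AOC3, a further cyclase gene beside them, stayed at or under 1.26 CPM in every set. AOC2 took between 51.6% and 60.9% of the CPM of the 4 cyclase genes in each set, and AOC1 between 21.6% and 32.5%.

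JAZ1 (AT1G19180, chromosome 1, 6621777 to 6623668, plus strand) and JAZ10 (AT5G13220, chromosome 5, 4218786 to 4221077, plus strand) encode repressors that bind MYC factors and are degraded through COI1; their genes are themselves induced by jasmonate. JAZ1 had 37.9 CPM in Vash-1, 33.7 in Shigu-2, 66.2 in Kly-1 and 48.6 in Altenb-2. JAZ10 had 6.81 CPM in Vash-1, 3.09 in Shigu-2, 11.9 in Kly-1 and 5.08 in Altenb-2. Kly-1 was the highest and Shigu-2 the lowest set for both repressors. The ratio of these sets was 1.97 (1.83 to 2.11) for JAZ1 and 3.87 (3.12 to 4.81) for JAZ10. Vash-1, the highest set for most synthesis members, was not high for JAZ1.

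VSP1 (AT5G24780, chromosome 5, 8507590 to 8509201, minus strand) and VSP2 (AT5G24770, chromosome 5, 8500468 to 8502224, minus strand) encode vegetative storage proteins of the acid phosphatase family, widely used as markers of the MYC branch. VSP1 had 208 CPM in Vash-1, 1.05 in Shigu-2, 1.84 in Kly-1 and 34.3 in Altenb-2, from 5097, 39, 54 and 771 tags. Vash-1 was far above all other sets, Altenb-2 was next, and Kly-1 and Shigu-2 were close to the bottom of the measured range. The ratio of Vash-1 to Shigu-2 was 198 (145 to 279), and the wide interval comes with the 39 tags of Shigu-2.

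VSP2 had 418 CPM in Vash-1, 69.8 in Shigu-2, 141 in Kly-1 and 8.37 in Altenb-2, from 10265, 2599, 4135 and 188 tags. Vash-1 was again highest, but here Altenb-2 was the lowest set, below Shigu-2 by a ratio of 8.34 (7.19 to 9.72). VSP1 thus ran in the order Vash-1, Altenb-2, Kly-1, Shigu-2, and VSP2 in the order Vash-1, Kly-1, Shigu-2, Altenb-2. The ratio of Vash-1 to Altenb-2 was 6.05 (5.61 to 6.54) for VSP1 and 49.99 (43.3 to 58.1) for VSP2.

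The balance of the pair differed from set to set. VSP1 made up 33.2% (32.4 to 33.9%) of the pair's tags in Vash-1, 1.48% (1.05 to 2.02%) in Shigu-2, 1.29% (0.97 to 1.68%) in Kly-1 and 80.4% (77.7 to 82.9%, exact binomial interval) in Altenb-2. VSP1 was the larger share in Altenb-2 alone, and the intervals of Kly-1 and Shigu-2 overlapped. The pair's summed level was 626 CPM in Vash-1, 70.9 in Shigu-2, 143 in Kly-1 and 42.7 in Altenb-2. Their coding sequences are 86.5% identical, with a longest identical stretch of 54 bp. Over the 75 genomic bases from the main start, identity to VSP1 is 55.8% from the VSP2 start 8501858 and 81.5% from the VSP2 start 8501884. Tags were placed by alignment to sequence that may not be the accessions' own, and how much of the difference in balance follows from that was not tested.

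**Figure D2:**
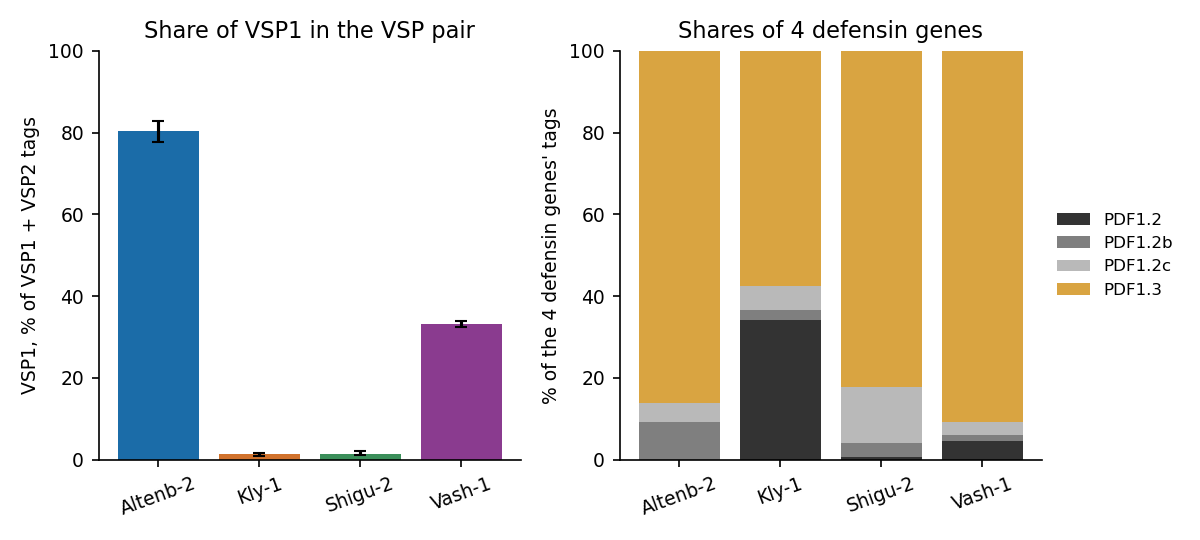
Left, the share of VSP1 in the tags of VSP1 and VSP2 for each set, in percent, with exact 95% binomial intervals; right, the shares of the 4 defensin copies PDF1.2, PDF1.2b, PDF1.2c and PDF1.3 in their summed tags for each set, in percent. VSP1 holds 80.4% of the pair in Altenb-2 and under 2% in Kly-1 and Shigu-2, and PDF1.2 has its largest share, 34.2%, in Kly-1.

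ORA59 (AT1G06160, chromosome 1, 1882907 to 1883992, plus strand) encodes an AP2/ERF transcription factor that joins jasmonate and ethylene signals. It had 22.2 CPM in Vash-1, 8.68 in Shigu-2, 12.2 in Kly-1 and 6.37 in Altenb-2. Vash-1 was highest and Altenb-2 lowest, at a ratio of 3.48 (2.89 to 4.22). ORA59 was past 2-fold only with Vash-1 among the sets: without it, 4 members were counted instead of 5.

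PDF1.2 (AT5G44420, chromosome 5, 17906968 to 17907638, minus strand) encodes a secreted antifungal defensin. It had 7.83 CPM in Vash-1, 0.430 in Shigu-2 and 24.0 in Kly-1, from 192, 16 and 704 tags, and no cluster was listed in Altenb-2. Kly-1, not Vash-1, was the highest set, at a ratio to Vash-1 of 3.07 (2.61 to 3.62). Vash-1 exceeded Shigu-2 by 18.2 (10.9 to 32.5). No fold is given against Altenb-2, where up to 4 tags of a cluster could go unlisted. ORA59 and PDF1.2 thus shared their lowest set and not their highest. This set, Altenb-2, was lowest for 3 of the 10 members, against 39.1% of all genes tested.

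The other defensin copies differed from PDF1.2 in their highest set. PDF1.3 had 154 CPM in Vash-1, 49.9 in Shigu-2, 40.5 in Kly-1 and 9.48 in Altenb-2, and was the largest share of the 4 copies in every set, from 57.6% in Kly-1 to 90.9% in Vash-1. PDF1.2c had 5.18, 8.30, 4.09 and 0.490 CPM in the same order of sets, with Shigu-2 highest. PDF1.2b stayed at or under 2.49 CPM. In coding sequence the copies are 91.4 to 93.8% identical to PDF1.2. Over the 75 genomic bases from the main start identity is 96% for PDF1.2b, 64.4% for PDF1.2c and 63.2% for PDF1.3. How much of the split between copies, or of the unlisted PDF1.2 in Altenb-2, follows from where tags were placed was not tested. All 4 copies were lowest in Altenb-2, which was the lowest set for 39.1% of all genes tested. Their summed level was 170 CPM in Vash-1, 60.6 in Shigu-2, 70.3 in Kly-1 and 10.996 in Altenb-2, and was thus highest in Vash-1.

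Of the 29 pairs of neighbouring sets in the members' orders of level, 3 had a ratio whose interval held 1: Shigu-2 and Kly-1 for LOX2, and both neighbouring pairs named above for AOC1. These intervals do not include the variation between plants or cultures.

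Start positions were compared for the 7 members that reached 5 CPM in all 4 sets. The main peak, the most used position of a gene's largest cluster, was at the same base pair in all sets for AOS, JAZ1 and ORA59 and differed for 4 members, LOX2, AOC1, AOC2 and VSP2, against a background of 36.6% of 11879 protein-coding genes. It moved by over 10 bp for 3 members (LOX2, AOC1 and VSP2), against 23% of these genes.

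LOX2 had its main peak at 16525429, 8 bp before the start codon, in Altenb-2 and Vash-1, and at 16525412, 25 bp before it, in Kly-1 and Shigu-2. The peak held 94.9% of the main cluster's tags in Altenb-2 and 95.2% in Vash-1, against 76.6% in Kly-1 and 75.9% in Shigu-2. The sets thus formed 2 pairs, 17 bp apart, within 1 cluster. In the reference the upstream start has TATAAA beginning 33 bases before it and starts on the step TA, a pyrimidine followed by a purine; the downstream start has no TATA match in its window and lies on AA.

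By the largest cluster, AOC1 had its main peak at 9403951 in Altenb-2 and Vash-1 and at 9403883 in Kly-1 and Shigu-2, 68 bp apart. This rested on few tags: in Vash-1 the clusters held 452 tags downstream and 448 upstream, and its most used single position was upstream, at 9403888, with 194 tags against 130. In Altenb-2 the peaks held 137 and 136 tags. By the rule, 2 of 7 members had 1 main peak in Altenb-2 and Vash-1 and another over 10 bp away in Kly-1 and Shigu-2, as 1.99% of the protein-coding genes did, but AOC1 is in this count by 4 tags. AOC2 shifted by 5 bp, with 9406878 in Shigu-2 and 9406873 elsewhere.

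VSP2 had its peak at 8501884 in Kly-1 and Shigu-2, with 34.8% and 35.1% of the cluster's tags, at 8501880 in Altenb-2, with 59.6%, and at 8501858 in Vash-1, with 88.9%. In Vash-1 the table splits the region into a cluster of 5167 tags that peaks at 8501858, 14 bp before the start codon, and one of 4963 tags that peaks at 8501882. In Kly-1 and Shigu-2 a single cluster covers both positions, so the distance between main peaks depends in part on how clusters were cut. VSP1 kept 8508923 in all sets, though with 22 tags in that cluster in Kly-1 and 16 in Shigu-2. JAZ10 kept 4218917 in all sets. PDF1.2 had 17907598 in Kly-1 and Vash-1, and 17907561 in Shigu-2 from 11 tags.

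**Figure D3:**
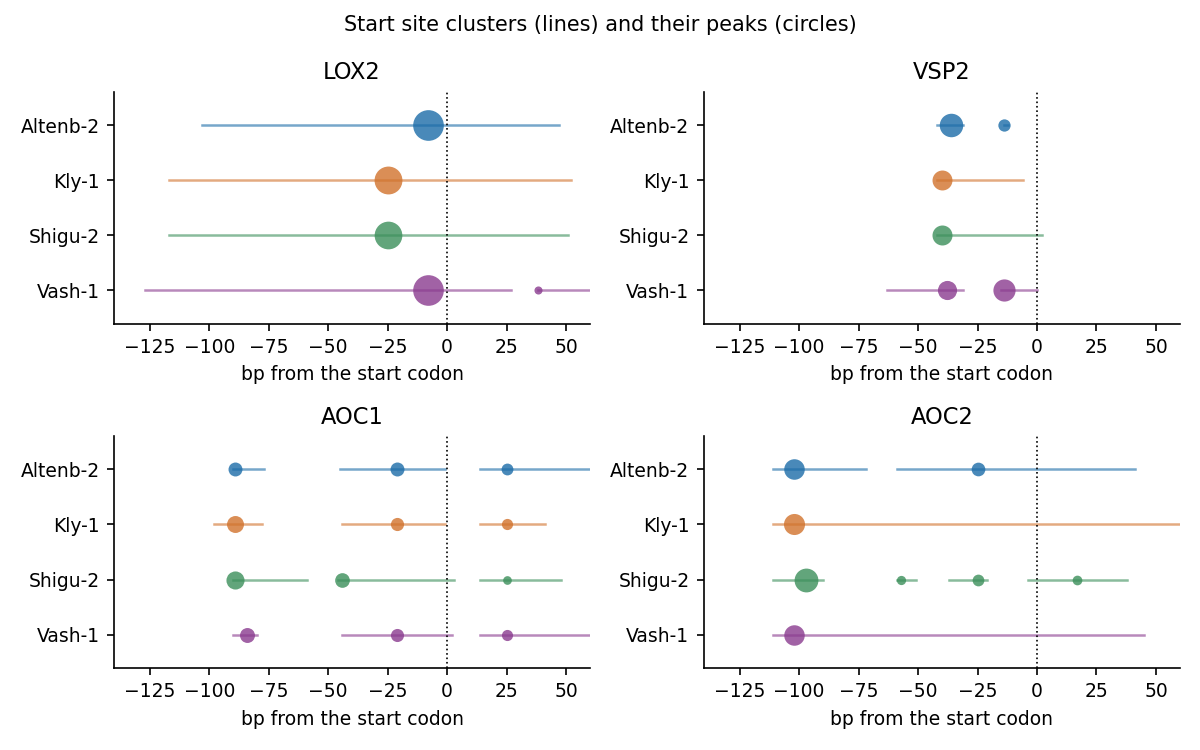
Start-site clusters of LOX2, AOC1, AOC2 and VSP2 in the 4 sets, by distance from the start codon in bp; lines are clusters of 20 tags or more, circles their peaks, and circle area grows with the peak's share of the gene's tags. The LOX2 peak lies 8 bp before the start codon in Altenb-2 and Vash-1 and 25 bp before it in Kly-1 and Shigu-2.

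Motifs were searched in the reference upstream of each member's main peak over all sets. A TATA match (TATAAA or TATATA, starting 40 to 25 bases upstream on the gene's strand) was found for 6 of 10 members, AOC1, AOC2, VSP1, VSP2, ORA59 and PDF1.2, and for 21.7% of 14320 promoters of protein-coding genes. The other motifs were searched on both strands of the 500 bp upstream. The G-box CACGTG lay upstream of 4 members, AOS, AOC2, JAZ1 and ORA59, and of 13.4% of promoters. The T/G-box, AACGTG or its reverse complement CACGTT, lay upstream of 6 members, AOC1, AOC2, JAZ1, VSP1, VSP2 and PDF1.2, and of 13.6%. A G-box was not counted as a T/G-box. The GCC-box GCCGCC lay upstream of ORA59 and PDF1.2, and of 4.80%. Several of these motifs are known from these very promoters, so the counts describe the sequences shown above and draw nothing from the tags. LOX2 and JAZ10 had none of these matches at these peaks.

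The wider pathway was described by a list of 64 other genes, drawn up by role. Of these, 53 reached 5 CPM in at least 1 set, and DAD1, JAZ4, JAZ13 and THI2.1 were unlisted in all sets. At 2-fold, 29 of the 53 passed (54.7%), with a median log2 span of 1.14, against 23.5% and 0.62 over all genes tested. A gene that reaches 5 CPM in its highest set alone enters this count because it is high there. Kly-1 was the highest set for 23 of the 53 (43.4%, against 21.3% of all genes tested). Shigu-2 was highest for 18 (33.96%, against 41.5%) and Altenb-2 for 5 (9.43%, against 17.998%). The Shigu-2 count was 10 of 52 with median-of-ratios scaling (19.2%, against 25.8%) and 18 of 45 with rRNA kept in the totals (40%, against 63.4%). With median-of-ratios scaling Kly-1 led in 25 of 52 genes, against 21.8% of all genes tested. With rRNA kept in the totals it led in 20 of 45, against 22.7%. Vash-1 was the highest set for 7 (13.2%, against 19.2% of all genes tested), and with median-of-ratios scaling for 11 of 52 (21.2%, against 22.8%), a share near that of all genes.

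In biosynthesis, 6 of 14 genes (42.9%) passed, against 23.5% of all genes tested. The lipoxygenase genes LOX3 and LOX4 were highest in Kly-1, at 13.5 and 36.5 CPM, and lowest in Shigu-2, at 5.88 and 12.3 CPM. OPR3, the peroxisomal reductase of the pathway, had 37.9 CPM in Vash-1, 34.7 in Shigu-2, 74.4 in Kly-1 and 32.1 in Altenb-2, and Kly-1 alone stood out. The precursor's transporter gene PXA1 ran from 17.3 CPM in Vash-1 to 49.3 in Shigu-2, and the oxidase gene ACX1 from 47.5 in Vash-1 to 120 in Shigu-2. The ligase gene OPCL1 ran the other way, from 26.2 CPM in Shigu-2 to 85.4 in Vash-1.

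Of the genes of hormone conjugation and turnover, 8 of 9 passed, against 23.5% of all genes tested. Of these, CYP94B3 reached 5 CPM in Altenb-2 alone and enters the count because it is high there. Kly-1 was the highest set for 6 of the 9, against 21.3% of all genes tested. With rRNA kept in the totals it was highest for 6 of 6, against 22.7%. Vash-1 was the lowest for 5 of the 9, against 25.9%. The jasmonate hydroxylase genes JOX2, JOX3 and JOX4, which inactivate jasmonic acid, had 64.7, 61.8 and 8.39 CPM in Kly-1 against 9.33, 8.19 and 0.856 in Vash-1. The sulfotransferase gene ST2A had 97.2 CPM in Kly-1 against 26.0 in Shigu-2. The amidohydrolase genes IAR3 and ILL6, which cleave the active conjugate, had 64.1 and 20.3 CPM in Kly-1, with their lowest values, 17.6 and 6.47, in Vash-1 and Shigu-2. The cytochrome P450 genes CYP94B1 and CYP94B3, which oxidise it, differed from this: CYP94B1 was highest in Vash-1 at 6.85 CPM and CYP94B3 in Altenb-2 at 5.70 CPM, where Shigu-2 listed none of the latter. JAR1, the enzyme that makes the conjugate, did not pass, at 8.27 CPM in Vash-1, 12.2 in Shigu-2, 15.97 in Kly-1 and 16.2 in Altenb-2.

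In perception and repression, 3 of 13 genes passed, JAZ3, JAZ5 and JAZ7, a share of 23.1% that is close to the 23.5% of all genes tested. COI1, the receptor gene, had 36.5 CPM in Vash-1, 37.1 in Shigu-2, 34.5 in Kly-1 and 39.1 in Altenb-2, all within a span of 0.18 on the log2 scale. JAZ7 had 7.20 CPM in Kly-1 and at most 1.29 elsewhere, JAZ5 had 8.60 in Kly-1 and at most 4.05 elsewhere, and JAZ3 ran from 19.3 in Altenb-2 to 42.9 in Shigu-2. Counting JAZ1 and JAZ10 with the others, 10 of the 13 JAZ genes reached 5 CPM. Of these 10, 8 were highest in Kly-1, against 21.3% of all genes tested, and 4 passed 2-fold, against 23.5%. JAZ5 and JAZ7 are in both counts and reached 5 CPM in Kly-1 alone, so the level filter fixed their highest set. Under median-of-ratios scaling 9 of 10 were highest in Kly-1, against 21.8% of all genes tested. With rRNA kept in the totals 5 of 8 were, against 22.7%.

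Among transcription factors, 5 of 9 passed, against 23.5% of all genes tested. MYC2, the leading factor of the VSP branch, had 13.4 CPM in Vash-1, 12.6 in Shigu-2, 34.9 in Kly-1 and 16.8 in Altenb-2. Its highest set was Kly-1, whereas VSP1 and VSP2 were highest in Vash-1, where MYC2 was low. The related factor genes MYC3 and MYC4 did not pass 2-fold. MYC4 was highest in Vash-1, at 24.6 CPM against 12.9 to 15.7 elsewhere, and MYC3 in Altenb-2, at 82.9 CPM. ERF2 was highest in Kly-1 at 52.9 CPM and lowest in Shigu-2 at 12.7. The NAC genes NAC019 and NAC055, which act downstream of MYC2, were highest in Kly-1 at 9.38 and 9.11 CPM. JAM3, a bHLH gene that opposes MYC2, was highest in Shigu-2 at 25.2 CPM and lowest in Altenb-2 at 10.2.

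Of the responsive outputs, 7 of 8 passed, against 23.5% of all genes tested. Vash-1 was highest for 4 of the 8, against 19.2%: PDF1.3 (given above), PR4, CHIB and JR1. CHIB reached 5 CPM in Vash-1 alone. PR4, a pathogenesis-related gene, ran from 56.4 CPM in Altenb-2 to 171 in Vash-1, the chitinase gene CHIB from 1.16 in Kly-1 to 5.87 in Vash-1, and JR1 from 22.9 in Shigu-2 to 55.9 in Vash-1. CORI3, a coronatine-induced gene, was highest in Altenb-2 at 855 CPM and lowest in Shigu-2 at 309. TAT3, an aminotransferase gene, had 16.3 CPM in Kly-1 and was lowest in Vash-1, at 1.14, with Altenb-2 close to it, at 1.202. PDF1.2c was highest in Shigu-2, as given above.

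**Figure D4:**
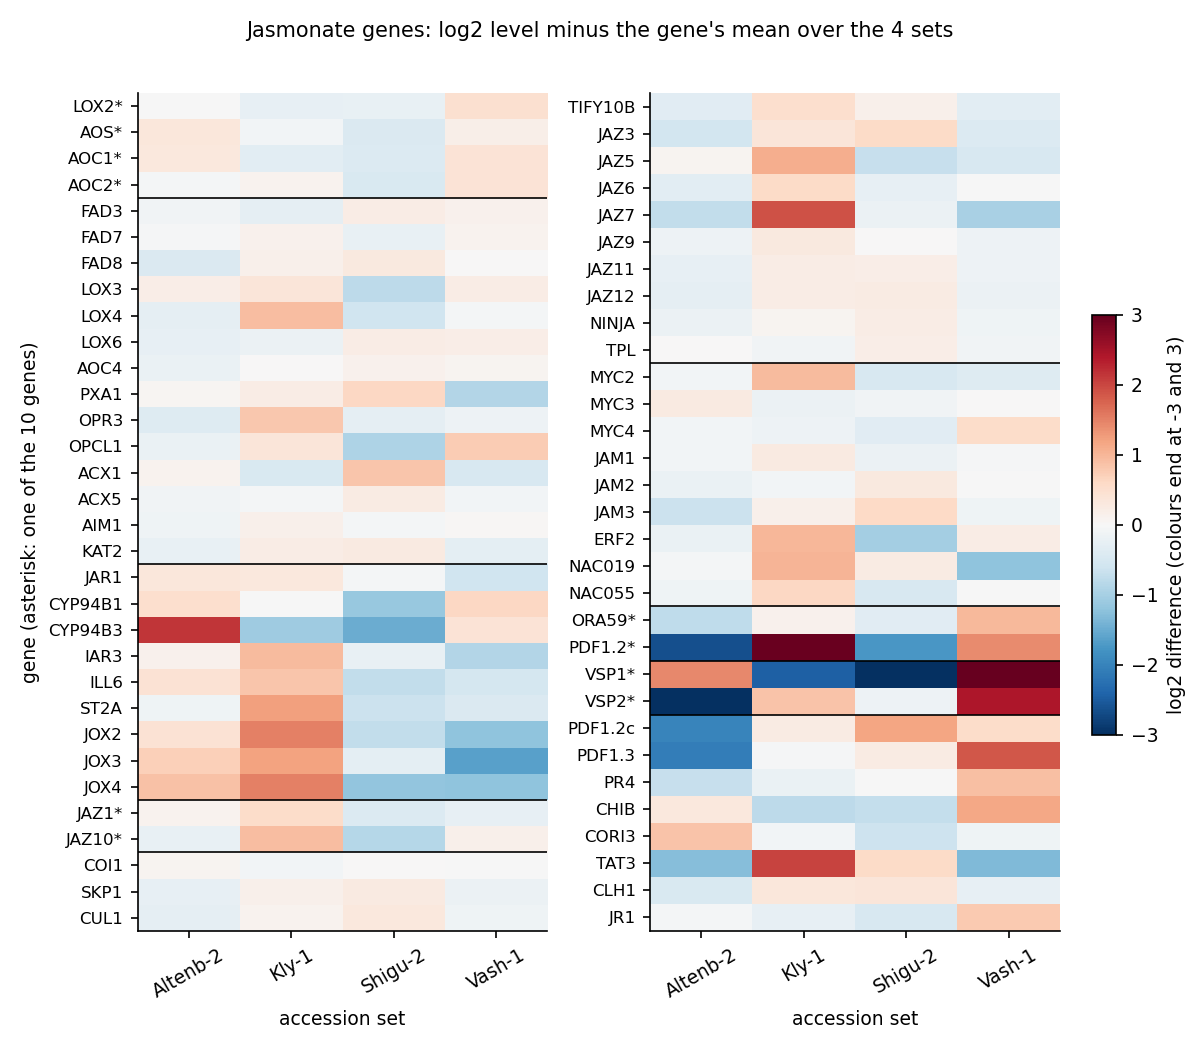
Heat map of members and listed pathway genes that reached 5 CPM in at least 1 set; colour is log2(CPM + 0.5) minus the gene's mean over the 4 sets, ending at 3 in either direction. Kly-1 is the highest set for 6 of 9 turnover genes and 8 of 10 JAZ genes, against 21.3% of all genes tested. Of these JAZ genes, JAZ5 and JAZ7 reach 5 CPM in Kly-1 alone. Vash-1 is the highest set for VSP1 and VSP2, against 19.2%.

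The genes most like the 2 members of widest span, VSP1 and PDF1.2, were found by the distance between profiles of log2(CPM + 0.5) centred over the 4 sets, among 14711 genes outside both lists. PDF1.2 was wider than VSP2 (5.62 against 5.56) only with its unlisted set taken as 0: with a pseudocount of 1 CPM the spans were 4.64 and 5.48, and with rRNA kept in the totals 4.80 and 5.52. Nearest to VSP1 were MRU1 at a distance of 1.23, AT1G64795 at 1.47 and AT2G04460, annotated as a pseudogene, at 1.71. MRU1 had 4.14 CPM in Altenb-2 and 21.9 in Vash-1, and no cluster in the other two sets. Nearest to PDF1.2 were AT5G23115 at 1.32, AT2G31150 at 1.44 and AT4G14385 at 1.96. AT5G23115 had 19.8 CPM in Vash-1, 0.671 in Shigu-2, 43.4 in Kly-1 and 1.69 in Altenb-2. A profile over 4 values can be matched by many genes of no relation.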

How the data were processed

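CAGE tags of aerial parts were aligned by the authors; per the submitters' processing notes the tool was STAR 2.7.9a. Not given in the sources used here are its genome build, its handling of multiple matches and the rule for cutting clusters. The deposited table lists 317183 start-site clusters with raw tag counts of cluster and peak, and a fraction, the deposited peak count over the cluster count. All cluster ends lie within the TAIR10.1 chromosomes, whose annotation gave gene bounds, names and sequences.

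Here, 405 clusters within 5000 bp of nuclear rRNA genes were set aside. Counts were summed per gene and set, scaled to the remaining tags, and compared as log2(CPM + 0.5) for genes that reached 5 CPM in any set. The scripts used Python 3.11.15, pandas 2.3.3, NumPy 2.4.6, SciPy 1.17.1 and Biopython 1.88, and were tested on simulated data. Depth was 22462179 to 37230794 tags per set.

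The sets carry no library, condition or replicate, so tests of accession or treatment and a replicate block could not be made, and size rules stand in for them. The members and lists were chosen with earlier results of these data known. Named pathway genes are those past 2-fold, close copies of members, and MYC2, COI1, JAR1 and OPR3. MYC3 and MYC4 were named in addition, beside MYC2. For the 2 members of widest span, the 3 genes of nearest profile are named. The profile rule was applied to VSP1 and PDF1.2. Alternatives changed the scaling, the window, the pseudocount, the smallest cluster, the level filter and the sets, summed close copies, and used intervals in place of point values; summing VSP1 with VSP2 was added after seeing the data.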

Additional observations from a re-analysis of the deposited data

How the results depend on the processing

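No paired analysis was possible because the sets carry no replicate numbers, and no replicate could be left out. Without a level filter 6186 of 37899 genes passed 2-fold, and at 20 CPM in at least 1 set 1725 of 8397 did, against 3468 of 14774; for the listed pathway genes the count at 20 CPM was 18 of 36, against 29 of 53. The members' count lay between 4 and 7 under all alternatives. JAZ10, VSP1, VSP2, ORA59 and PDF1.2 were past 2-fold in each of the 9 settings that keep all 4 sets and the level filter. AOC2 passed under median-of-ratios scaling, at a log2 span of 1.03, and with tags counted only up to the start codon, at 1.02. JAZ1 passed under median-of-ratios scaling, at 1.05, and with rRNA kept in the total, at 1.03. Median-of-ratios scaling shifted all genes by 0.107 in Altenb-2 and by -0.116 in Shigu-2 on the log2 scale. Of 85 spans recomputed between each member's highest and lowest set, 64 moved by less than counting error, 21 by more and 0 reversed. The highest set of each member stayed the same in the 9 settings, while Shigu-2 was lowest for 5 to 7 members. With VSP1 and VSP2 summed, chosen after seeing the data, the span between Vash-1 and Shigu-2 was 3.13 and between Vash-1 and Altenb-2 3.86. With PDF1.2, PDF1.2b and PDF1.2c summed it was 3.91 between Kly-1 and Altenb-2. Low tag counts limit PDF1.2 in Altenb-2 and Shigu-2 and VSP1 in Kly-1 and Shigu-2, which rest on 54 tags or fewer.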

Other observations

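Tags on the strand opposite a member were used in no comparison. They were listed at AOS alone, with 15 tags in Vash-1, 9 in Shigu-2 and 8 in Altenb-2, beside 11325, 11136 and 11473 sense tags. No antisense cluster is listed for Kly-1, where up to 4 tags of a cluster can go unlisted, and the sets were not compared.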
